A study of Mus musculus with 2 samples.

Results

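C4b and Serpina3n are 2 of the 31053 genes in the count tables of a single-cell RNA sequencing study of neonatal stroke in mice, and were picked out by their gene symbols. They were chosen with earlier results of these libraries in view, among them their levels in mature oligodendrocytes on both sides of the brain. Their levels by cell class and library are therefore given as a description, with no test. In male C57/BL6 mice on postnatal day 10 the middle cerebral artery was closed for 60 minutes (MCAO). Lateral striatum was collected 2 weeks after reperfusion began. The ipsilateral library came from the side of the occluded artery and the contralateral library from the opposite side of operated animals, so no unoperated brain is among the groups. Tissue of 3 animals was pooled for each library, and flow sorting kept cells with A2B5 or O4 on their surface, antigens of glial precursors and later oligodendrocyte stages. With 1 library for each side the spread between animals cannot be had, and the intervals below are 95% intervals for counting error only.

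C4b encodes mouse complement component C4, which the C1 complex or lectin-associated proteases cleave, and whose larger fragment binds covalently to nearby surfaces and helps form the enzyme that cleaves C3. Serpina3n encodes a secreted serine protease inhibitor of the family related to human alpha-1-antichymotrypsin, known to inhibit granzyme B and leukocyte elastase. In brain both transcripts are known from reactive astrocytes, and both are named among the genes of disease-associated oligodendrocytes in models of demyelination and neurodegeneration.

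C4b lies on the minus strand at chr17:34728380-34743882 (GRCm38, mm10) and has 41 exons in its GENCODE M21 transcript. Its neighbour C4a, at chr17:34809092-34823464 on the same strand, is annotated as a processed transcript and has no row of its own in the count tables. Of the 31-base words of the C4b transcript, 48.8% also occur in C4a, and 58.2% of those in its last 500 bases. Over 5367 aligned bases the transcripts were 96.1% identical. Reads from the shared words cannot be told apart, so each C4b value may include C4a RNA. The stretch of 60 bases in which they differ most lies in exon 21 of C4b at chr17:34735430-34735489. A read over it could separate the genes, but whether these libraries hold such reads was not tested. It is shown with the 13 differing bases in capitals.
C4b: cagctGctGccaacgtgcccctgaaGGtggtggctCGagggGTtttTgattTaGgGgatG
C4a: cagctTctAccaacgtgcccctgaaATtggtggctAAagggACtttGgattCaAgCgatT

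Serpina3n lies on the plus strand at chr12:104406729-104414329 and has 5 exons. Of its 31-base words 21.6% occur in another gene, mostly other Serpina3 genes, but only 1.6% of those in its last 500 bases. The 250 bases before its RefSeq start (GRCm38.p6, chr12:104406458-104406707, plus strand) are shown because Stat3 target genes were among those measured beside it.
Serpina3n: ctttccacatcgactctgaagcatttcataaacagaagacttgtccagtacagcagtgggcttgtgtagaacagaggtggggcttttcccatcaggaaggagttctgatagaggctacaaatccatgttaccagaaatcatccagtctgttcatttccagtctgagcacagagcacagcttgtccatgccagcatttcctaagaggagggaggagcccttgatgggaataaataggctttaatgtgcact
Neither strand of this window held the STAT motif TTCNNNGAA, which occurs in 7.02% of 32851 promoter windows of equal length. The same was true of the C/EBP motif TTGCNNAA (9.56% of windows), the AP-1 motif TGANTCA (6.75%), the interferon-stimulated response element (2.98%), the NF-kB site (0.14%) and TATAAA (12.4%). This says only that these letters are absent from this window.

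The contralateral library held 36063045 UMIs and the ipsilateral library 54788795. The filter of at least 500 detected genes and at most 15% mitochondrial counts kept 1913 of 2066 contralateral and 2505 of 2775 ipsilateral barcodes. Kept cells had medians of 14595 and 19851 UMIs (unique molecular identifiers, each standing for a captured RNA molecule), and no barcode occurred in both libraries. Of 21 clusters, 18 could be named from marker genes, giving 6 classes with at least 50 cells in each library. Class names rest on marker RNA alone and stand for mature oligodendrocyte-like cells, astrocyte-like cells and so on. The label calls the cells oligodendrocytes, but the sort also held astrocytes (81 contralateral and 88 ipsilateral cells), neuroblasts or neural progenitors (503 and 468) and endothelial cells (183 and 128). All 10 mature oligodendrocyte markers were detected in the mature class of both libraries, with a summed level of 39610 and 40425 CPM (UMIs of the gene scaled to a fixed total of the class, as counts per 1e6).

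C4b was highest in astrocytes on both sides, and was low in mature oligodendrocytes contralaterally and high ipsilaterally. In the 524 contralateral mature cells it had 52 UMIs, or 3.50 CPM (2.62 to 4.60). In the 953 ipsilateral mature cells it had 1693 UMIs, or 61.7 CPM (58.8 to 64.7), which is 17.6-fold higher (13.4 to 23.7). Median depth was alike in these classes, at 27288.5 and 28384 UMIs per cell. With 5 CPM added on each side, which shrinks ratios of low genes, the log2 ratio was 2.97 (2.79 to 3.14). This was the first of 12173 genes ranked by that ratio, a contrast that helped to choose the gene. There 0.131% of genes reached a log2 ratio of 1 or more, and 0.0246% one of -1 or less.

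Astrocytes, the glia that tile the tissue and contact vessels, were the class with most C4b per captured RNA. They gave 65 UMIs contralaterally, or 89.4 CPM (69.0 to 114), and 107 UMIs ipsilaterally, or 127 CPM (104 to 153). The log2 ratio was 0.48 (0.05 to 0.92), which placed C4b at rank 998 of 8647 genes, of which 1.79% reached 1 or more. C4b was found in 44.4% of contralateral and 44.3% of ipsilateral astrocytes, so the share with a UMI was nearly the same on both sides. Astrocytes were 4.23% of contralateral cells and held 46.8% of that library's C4b UMIs. On the ipsilateral side the mature class held 76.5% and astrocytes 4.83%. Summed markers of mature oligodendrocytes were 465 CPM in contralateral and 2103 CPM in ipsilateral astrocytes, and the part of such RNA in the astrocyte values was not tested.

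In the earlier stages of the lineage C4b was nearly absent contralaterally. Oligodendrocyte precursor cells (OPCs), the dividing source of new oligodendrocytes, had no C4b UMI in 320 contralateral cells and 53 UMIs over 33 of 408 ipsilateral cells. The ipsilateral level of 9.07 CPM (6.80 to 11.9) was 10.4-fold the level of 3 UMIs, taken as the limit for a contralateral count of 0. This fold leaves out the counting error of the ipsilateral sum, and the exact contralateral upper bound was 1.07 CPM. Committed or newly formed oligodendrocytes had 4 UMIs contralaterally (1.74 CPM, 0.475 to 4.46) and 62 ipsilaterally (12.0 CPM, 9.20 to 15.4), with 22.6% of the ipsilateral UMIs in 1 cell. A log2 ratio of 1 or more was reached by 0.18% of genes in OPCs, where C4b had 1.49, and by 0.4% in committed cells, where it had 1.33. Summed mature markers were 473 and 628 CPM in contralateral and ipsilateral OPCs and 2728 and 1607 CPM in committed cells.

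Serpina3n differed from C4b in where it was found contralaterally. In OPCs it already had 26 UMIs over 25 of 320 contralateral cells, or 7.54 CPM (4.93 to 11.0), and 90 UMIs over 48 ipsilateral cells, or 15.4 CPM (12.4 to 18.9). In the mature class 12 contralateral UMIs, or 0.81 CPM (0.418 to 1.41), compared with 1085 ipsilateral UMIs, or 39.5 CPM (37.2 to 42.0). That is 48.9-fold (27.9 to 94.9), and 2.94 (2.78 to 3.06) on the log2 scale with 5 CPM added. A single ipsilateral cell held 100 of these UMIs, and 18 of the 172 cells with a UMI held 50% of them.

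Committed cells gave no Serpina3n UMI in 99 contralateral cells and 69 in 214 ipsilateral cells, or 13.4 CPM (10.4 to 16.9), of which 34.8% came from 1 cell. This is 10.2-fold the contralateral limit of 3 UMIs, without the counting error of the ipsilateral sum. The exact contralateral upper bound was 1.61 CPM. Astrocytes gave 14 UMIs on each side, 19.3 CPM (10.5 to 32.3) contralaterally and 16.6 CPM (9.06 to 27.8) ipsilaterally. Their log2 ratio of -0.17 had an interval from -1.05 to 0.71, so a difference in either direction was not detectable at this depth.

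Outside the glial classes both genes were low. Neuroblasts or neural progenitors, the migrating precursors of neurons, had 4 C4b UMIs contralaterally and 11 ipsilaterally, and 0 and 9 of Serpina3n. Summed mature markers there were 499 and 842 CPM. The log2 ratios were 0.25 (-0.04 to 0.52) and 0.34 (0.11 to 0.58). Of genes with at least 20 UMIs over both libraries in this class, 0.0333% reached 1 or more. Both members had fewer UMIs and are not among those genes. Endothelial cells had no UMI of either gene contralaterally and 9 of each ipsilaterally. Of these 9, a single cell held 7 for C4b and 6 for Serpina3n. Of genes with at least 20 UMIs over both libraries in endothelial cells, 1.28% reached a log2 ratio of 1 or more. The members had fewer UMIs there and are not among those genes. Both had a log2 ratio of 1.31. Without the barcodes called as doublets that ratio was 0.43 for both. Summed mature markers were 1416 CPM in contralateral and 2525 CPM in ipsilateral endothelial cells, and Klk6 had 1 and 23 UMIs there. The part of mature oligodendrocyte RNA in the values of these classes was not tested. In 14 contralateral and 15 ipsilateral mural cells, the contractile cells of vessel walls, C4b had no UMI and Serpina3n had 0 and 2.

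The order of the classes can be read from these intervals. Ipsilaterally, C4b in astrocytes lay above the mature class and the mature class above all others, whereas committed cells, OPCs and endothelial cells overlapped. Ipsilateral Serpina3n was highest in the mature class, and astrocytes, OPCs, committed and endothelial cells followed with each interval overlapping its neighbour's. Contralaterally the astrocyte and OPC intervals of Serpina3n overlapped and both lay above the mature class.

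**Figure D1:**
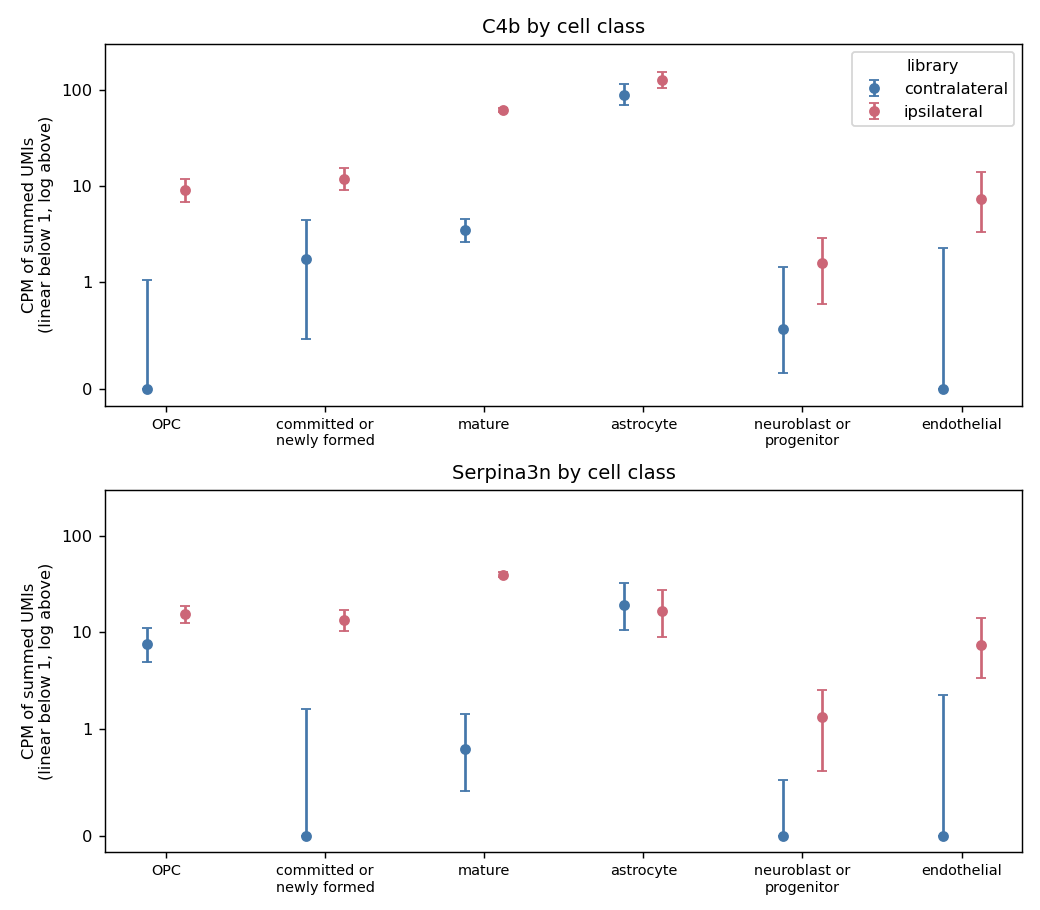
CPM of UMIs summed over each class, for C4b (top) and Serpina3n (bottom) in the contralateral (blue) and ipsilateral (red) library. The vertical axis is linear below 1 and logarithmic above, and bars are exact Poisson 95% intervals. Mature cells stand at 3.50 and 61.7 CPM for C4b, and astrocytes at 89.4 and 127 CPM.

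Shares of cells with a UMI grow with depth, and the classes differed in depth, so each cell was also thinned to a fixed number of UMIs. At 21969 UMIs, C4b was found in 27 of 427 contralateral mature cells (6.32%, 4.21 to 9.07) and in 145 of 755 on the ipsilateral side (19.2%, 16.5 to 22.2), so that the share was 12.9 percentage points higher (9.0 to 16.5). Serpina3n was found in 7 (1.64%, 0.662 to 3.35) and 106 (14.0%, 11.6 to 16.7), a difference of 12.4 points (9.45 to 15.3). The thinning left out 97 contralateral and 198 ipsilateral mature cells that were shallower. Unthinned shares were 8.40% and 25.4% for C4b and 1.72% and 18.0% for Serpina3n. Neuroblasts or neural progenitors were taken as a class with little of either gene (medians of 11348 and 11419 UMIs before thinning). No C4b was seen there in 104 contralateral cells at 21969 UMIs. This allows a share of up to 2.88% by the limit of 3 counts and 3.48% by the exact bound. C4b was seen in 2 of 94 ipsilateral cells. Shallower cells of this class, 399 contralateral and 374 ipsilateral, were left out, so these shares describe its deeper cells.

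To place all classes on one scale the cells were thinned to 5705 UMIs. C4b was then found in 30.2% of contralateral (19.2 to 43.0) and 36.1% of ipsilateral astrocytes (25.1 to 48.3), and in 1.73% (0.796 to 3.27) and 13.9% (11.8 to 16.3) of mature cells. OPCs showed it in 0 of 296 contralateral cells, which allows up to 1.01% by the limit of 3 counts and 1.24% by the exact bound, and in 4.16% of ipsilateral ones (2.39 to 6.66). Serpina3n was in 5.07% of contralateral (2.86 to 8.22) and 6.49% of ipsilateral OPCs (4.25 to 9.44), which is a difference of 1.43 points (-2.45 to 5.10). A difference in that share was not detectable at this depth. Committed cells showed C4b in 2.04% of contralateral and 3.37% of ipsilateral cells, a difference of 1.32 points (-4.19 to 5.21). They showed Serpina3n in 0 of 98 contralateral cells (exact upper bound 3.69%) and in 3.37% of ipsilateral ones, a difference of 3.37 points (-0.84 to 6.81). Neither difference in committed cells was detectable at 5705 UMIs. At 21969 UMIs both differences were larger, in deeper cells only. C4b was then in 1 of 46 contralateral and 14 of 103 ipsilateral committed cells, a difference of 11.4 points (0.33 to 19.8). Serpina3n was in 0 and 11 of these cells, a difference of 10.7 points (1.37 to 18.3). Shallower committed cells, 53 contralateral and 111 ipsilateral, were left out there.

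**Figure D2:**
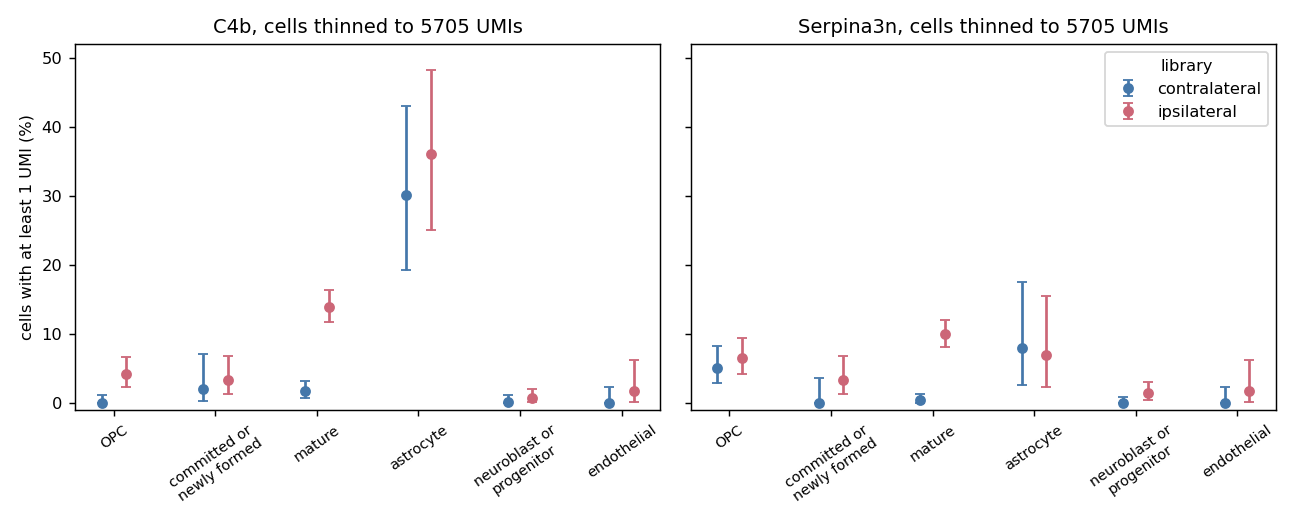
Share of cells with at least 1 UMI of C4b (left) or Serpina3n (right) after thinning each cell to 5705 UMIs, by class and library, with exact binomial 95% intervals. Astrocytes show C4b in 30.2% and 36.1% of cells, and mature cells show it in 1.73% and 13.9%.

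Within the mature class the ipsilateral levels of both genes differed between clusters, while the contralateral intervals overlapped. The clusters were formed without C4b, Serpina3n and the response genes of the lists below, 135 genes in all. Contralateral C4b lay between 2.52 and 4.50 CPM in the 5 mature clusters. Ipsilateral C4b was 151 CPM (142 to 160) in cluster 5, 55.1 (49.4 to 61.2) in cluster 16, 28.1 (24.6 to 31.9) in cluster 3, 18.0 (13.6 to 23.2) in cluster 12 and 16.5 (12.2 to 21.8) in cluster 0. Serpina3n was 99.2, 42.4, 16.7, 4.33 and 1.01 CPM in the same clusters, so the order was the same for both genes. In cluster 0 the 3 Serpina3n UMIs on each side gave no difference, whereas C4b had 10 and 49 UMIs.

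Cluster 5 was led by Klk6, a secreted protease of oligodendrocytes, and by Pmp22 and Hapln2. It held 96 contralateral and 249 ipsilateral cells, and 94 and 242 after cells with fibroblast markers were set aside. Dcn, a proteoglycan gene of fibroblasts, was the fourth leading gene before that step and had no UMI in the remaining cells. C4b was among the 10 leading genes before and after it, although left out of the clustering. Its 94 contralateral cells, 17.9% of the mature class there, had only 11 C4b and 3 Serpina3n UMIs. Ipsilaterally it was 25.4% of mature cells and gave 59.6% of C4b and 61.2% of Serpina3n UMIs of the class. Without it the log2 ratio was 2.17 for C4b and 2.14 for Serpina3n. It was 2.88 and 2.83 with each cluster weighted on both sides by its share of all mature cells.

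**Figure D3:**
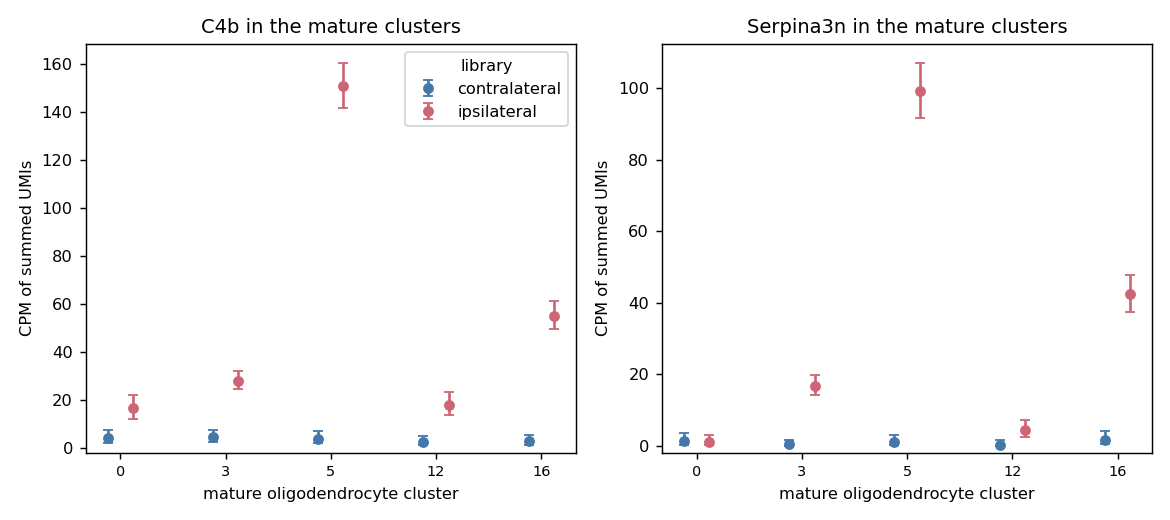
CPM of summed UMIs in each mature oligodendrocyte cluster, for C4b (left) and Serpina3n (right), with exact Poisson 95% intervals. Ipsilateral cluster 5 stands at 151 and 99.2 CPM, and all contralateral clusters lie at 4.50 CPM or less.

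The same ipsilateral mature cells tended to carry both transcripts. The members were chosen together for a shared pattern, so their co-detection is given as a description only. Both were found in 110 of 953 cells, C4b alone in 132, Serpina3n alone in 62 and neither in 649, where 43.7 cells with both would be found if detection were independent. The odds ratio was 8.67. After thinning to 21969 UMIs, 55 of 755 cells had both against 20.4 for independence, with an odds ratio of 6.66. With the cells split by depth into 4 groups of nearly equal size, from shallowest to deepest, the odds ratio was 24.8, 8.10, 4.22 and 4.89. Cells with both were shallower (median 23808.5 UMIs) than cells with neither (28705). Within clusters too more cells had both than under independence, with 60 cells against 29.9 in cluster 5, 26 against 10.1 in cluster 16 and 19 against 9.71 in cluster 3. Contralaterally only 2 mature cells had both, and 0.756 would be found under independence.

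Cells rich in 1 transcript were rich in the other. Among ipsilateral mature cells with no C4b UMI, 8.72% had Serpina3n (6.75 to 11.0). The share was 16% at 1 C4b UMI, 46.9% at 2 to 4, 58.8% at 5 to 9 and 86.4% at 10 or more (75.0 to 94.0). All 29 cells with 10 or more Serpina3n UMIs also had C4b. The reverse held less strictly, since 8 of 59 cells with 10 or more C4b UMIs had no Serpina3n.

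**Figure D4:**
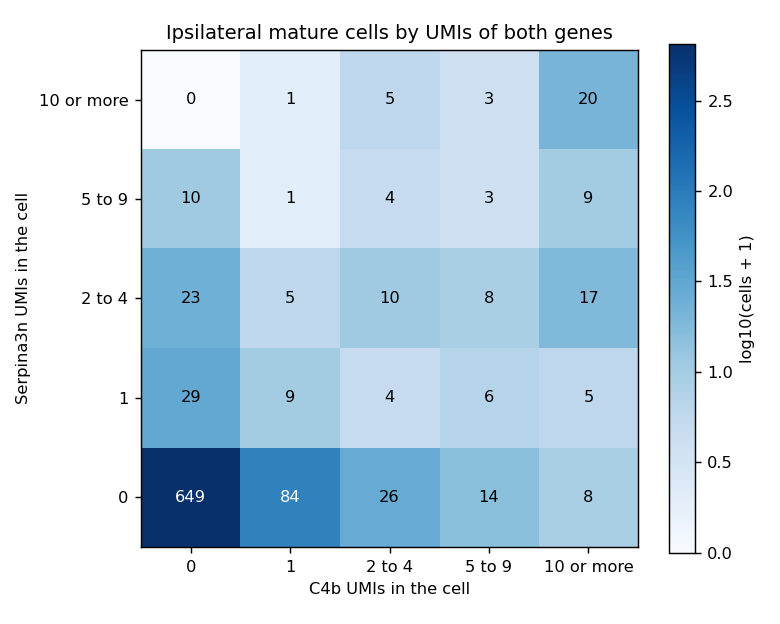
Number of ipsilateral mature cells by UMIs of C4b (horizontal) and Serpina3n (vertical), shaded by log10 of cells plus 1. The corner with 10 or more UMIs of both holds 20 cells, and no cell has 10 or more Serpina3n UMIs without C4b.

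In astrocytes the number of cells with both was close to that under independence. Both genes were found in 5 of 81 contralateral astrocytes, where 4.44 would be found under independence, and in 6 of 88 ipsilateral ones, where 4.43 would be. OPCs had both in 7 of 408 ipsilateral cells against 3.88, and committed cells in 6 of 214 against 2.44. After thinning to 21969 UMIs these were 3 of 48 OPCs against 3.00 and 2 of 103 committed cells against 1.50, too few to compare. Whether co-detection differed between classes was not tested.

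Ipsilateral mature cells with both transcripts were also higher than cells with neither in genes of some, but not all, lists chosen for this work. A log2 ratio of 1 or more between these groups of cells was reached by 0.932% of 11592 genes. It was reached by 9 of 17 measured genes of the disease-associated oligodendrocyte list other than the members. The STAT3 pathway list had 4 of 13 and the MHC class I list 4 of 7. Of the genes that reached it, H2-D1, H2-K1 and B2m are in both the first and the last list. Socs3 is in both the first list and the STAT3 list. Bcl3 of the STAT3 list had only 26 UMIs, at 6.91 CPM with both and 0.054 with neither. It was measured only through its UMIs in cells with both, so its ratio says nothing about the list. The same ratio was reached by 2 of 5 reactive astrocyte genes and 1 of 3 complement cascade genes. Of 16 interferon response genes, 6 complement inhibitors and 7 other serpins, 0 reached it. Adding 5 CPM to both groups, as above, shrinks ratios of low genes. Median log2 ratios were 0.39 for the interferon list, 0.35 for the STAT3 list and 0.009 for all genes. They were -0.006 for complement inhibitors and 0.04 for other serpins. Ifi27l2a of the interferon list was 51.0 CPM with both, 218 with C4b alone, 57.6 with Serpina3n alone and 49.8 with neither. Klk6 was 459 CPM (436 to 484) in cells with both, 41.0 in cells with C4b alone, 98.6 in cells with Serpina3n alone and 40.4 in cells with neither. Il33, an alarmin cytokine, was 173, 39.7, 16.6 and 10.9 CPM in the same order. Apoe, a lipid carrier, was 1560, 658, 205 and 191 CPM.

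These groups of cells lay in the clusters in unequal parts. Cluster 5 held 60 of 110 cells with both, 26 of 132 with C4b alone, 24 of 62 with Serpina3n alone and 132 of 649 with neither. Within cluster 5 alone, Klk6 was 864 CPM (817 to 913) in cells with both, 175 with C4b alone, 242 with Serpina3n alone and 168 (155 to 182) with neither. Il33 was there 245, 17.2, 1.29 and 1.57 CPM. In cluster 16 cells with both stood highest as well, with Klk6 at 140 CPM (115 to 169) against 9.28 (6.60 to 12.7) with neither. In cluster 3 Klk6 was low throughout, at 22.3 (12.2 to 37.4) and 3.09 CPM (1.80 to 4.94). Il33 in cluster 3 was 62.0 CPM (44.1 to 84.8) with both and 55.7 (44.7 to 68.7) with C4b alone. It was 47.3 (31.5 to 68.4) with Serpina3n alone and 14.2 (11.2 to 17.7) with neither. There the intervals of the groups with either transcript overlapped, unlike in cluster 5. Cells with both were thus above cells with neither inside each of these clusters.

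Cells with C4b alone were above cells with Serpina3n alone in H2-D1, H2-K1, B2m and H2-T22 of the MHC class I list. H2-D1, a heavy chain of MHC class I, was 345 CPM (324 to 366) with both and 312 (295 to 330.5) with C4b alone, but 97.1 (83.7 to 112) with Serpina3n alone and 99.6 (95.1 to 104) with neither. B2m, its partner chain, was 185, 175, 79.9 and 70.0 CPM, and H2-K1, another heavy chain, was 67.4, 69.0, 14.5 and 21.8 CPM in the same groups. Within cluster 5, H2-D1 was 288 CPM (248 to 332) with C4b alone and 72.4 (54.7 to 94.0) with Serpina3n alone. Within cluster 3 it was 216 (194 to 240) and 110 (84.8 to 140). Cells with neither stood at 159 (147 to 172) in cluster 5 and 51.0 (45.2 to 57.4) in cluster 3. In cluster 16 H2-D1 was 275 with C4b alone, 96.0 (68.6 to 131) with Serpina3n alone and 159 (147 to 171) with neither. Unlike in the pooled values, cells with Serpina3n alone were thus below cells with neither in clusters 5 and 16, and above them in cluster 3. Over all clusters H2-T22 was 12.7 CPM (9.40 to 16.8) with C4b alone and 4.15 (1.79 to 8.18) with Serpina3n alone. The intervals with C4b alone and with Serpina3n alone overlapped for H2-Q4 (6.23 and 4.67 CPM), H2-T23 (13.7 and 8.31) and Tapbp (7.26 and 7.79). Socs3, a feedback inhibitor of cytokine receptors and a Stat3 target, was instead above the last group in all others, at 287, 181, 236 and 70.8 CPM. Cebpd, a transcription factor of the acute phase, was 136, 48.0, 59.2 and 22.4 CPM. Microglia marker UMIs moved with the groups too: 57.3% of cells with both had at least 1 UMI of 8 microglia genes, against 50.8% with C4b alone, 48.4% with Serpina3n alone and 38.4% with neither. In cells with no such UMI the log2 ratios between libraries were 2.79 for C4b and 2.55 for Serpina3n, and the log2 odds ratio of co-detection was 3.56 against 2.74 in all thinned cells.

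**Figure D5:**
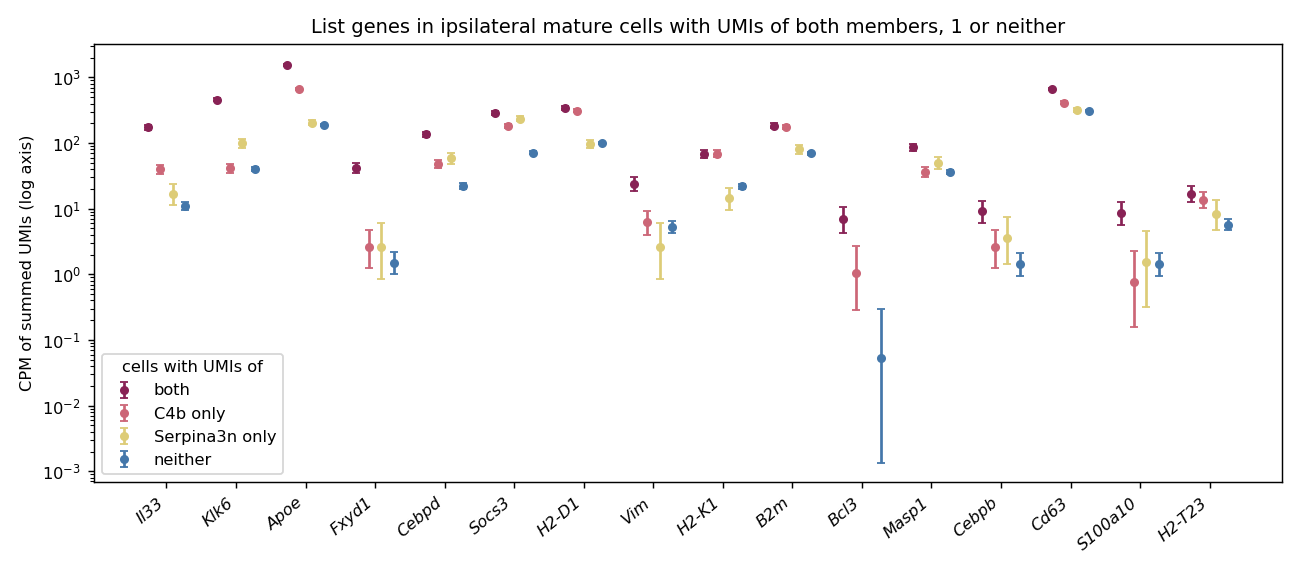
CPM on a log axis of the 16 list genes with a log2 ratio of 1 or more between ipsilateral mature cells with UMIs of both members and cells with neither, in cells with both, with 1 of them and with neither. Bars are exact Poisson 95% intervals, and Bcl3, with no UMI in cells with Serpina3n alone, is not drawn there. H2-D1, H2-K1 and B2m are high in both groups with C4b, and Klk6, Il33 and Fxyd1 are highest in cells with both.

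Apart from C4b, the complement genes measured in mature cells differed little between the libraries. Of 17 complement cascade genes in the tables, 4 had at least 20 UMIs there, and C4b was the only one past a log2 ratio of 1. Masp1, a protease of the lectin pathway that acts upstream of C4, was 34.4 and 42.9 CPM (log2 ratio 0.28, 0.15 to 0.41). C3, the substrate downstream of C4, had 0 and 3 UMIs, and the C1q chains C1qa, C1qb and C1qc had 1, 4 and 3 contralaterally and 5, 3 and 5 ipsilaterally. No complement receptor gene was measured at that depth. Of 8 measured complement inhibitors none passed 1 in either direction, among them Cd59a, which blocks the membrane attack complex, at 138 and 124 CPM.

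Among 10 genes of the Serpina3 family in the tables, Serpina3n was the only member detected in OPCs, mature cells, astrocytes and neuroblasts or neural progenitors. Serpina3g had 2 and 6 UMIs and Serpina3f 0 and 4 in endothelial cells, and Serpina3i 0 and 2 in committed cells and 0 and 1 in endothelial cells. Of 8 other serpins measured in mature cells none passed 1, with Serpinb1a at 103 and 107 CPM. Of the proteases that Serpina3 proteins inhibit, none had 20 UMIs in mature cells. In the STAT3 pathway list 2 of 13 measured genes passed 1 there, Socs3 (21.6 and 122 CPM, log2 ratio 2.25) and Cebpd (8.15 and 41.1 CPM, 1.81), whereas Stat3 itself was 57.5 and 70.3 CPM (0.27). The median was 0.11 for the list and 0.01 for all genes.

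The genes most like each member were ranked in 2 ways. Over the 12 sums of class and library, C4b was closest to Pex6 (r = 0.92), Cnih3, Hspa2, Parp3 and Hsdl2, of which Pex6 was 23.5 CPM in contralateral and 28.7 CPM in ipsilateral mature cells. Serpina3n was closest to C4b (r = 0.81), followed by Shpk, Gm14322, Trmt2b and Tmub1. Over 953 ipsilateral mature cells, which all come from 1 library and differ in depth, each member's closest gene of 11474 was the other (r = 0.66). The choice of the members for a shared pattern favours such ranks. Anxa2 and Klk6 were among the 5 closest of both. Il33 and Apoe completed the list for C4b, and Col13a1, detected in 26 cells, was also close to Serpina3n.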

How the data were processed

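UMI counts per gene and barcode were deposited by the authors and were made with Cell Ranger 3.1.0 on mm10, per the submitters' processing notes. Neither the annotation nor the transcript end that the kit reads is given in the sources used here. The genes and lists were chosen with earlier results of these data known. Kept cells of both libraries were scaled to 10000 counts, log-transformed and clustered together in scanpy 1.11.5 (2000 variable genes without the members and list genes, 30 principal components, 15 neighbours, Leiden resolution 1). Clusters took a class name from marker genes by scoring rules set after the data were seen. 10 cells with at least 4 fibroblast or microglia markers were set aside. No doublets were removed. Scrublet, run at its default rate before the filter, called 14 contralateral and 11 ipsilateral barcodes, and 14 and 101 when run after it. Counts were summed per class and library as CPM, with exact Poisson (sums), exact binomial (shares) and Newcombe (differences) 95% intervals. Named genes are the members, the 5 most like each by 2 measures, and list members with the largest ratios. A further gene of this rule is not reported here. The thinning to 5705 UMIs and the comparison of cells within clusters by detection of the members were chosen after seeing the data. On simulated sums over 31053 genes in mature cells, true log2 ratios of 1, 2, -1 and -2 (50 genes each) gave medians of 0.93, 1.82, -0.83 and -1.44. Of their intervals, 96%, 98%, 98% and 90% held the simulated ratio with 5 CPM added on each side, not the true ratio itself. The simulated counts were Poisson, as the intervals assume, so clumping of UMIs in single cells was not covered.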

Additional observations from a re-analysis of the deposited data

Results flagged for a closer look

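Both genes were also found in cells outside the named classes. In the barcodes removed by the filter (153 contralateral and 270 ipsilateral), the contralateral C4b level was 16.8 CPM (7.24 to 33.0) and the ipsilateral one 88.7 CPM (64.4 to 119). Serpina3n was at 10.5 (3.40 to 24.5) and 36.3 CPM (21.5 to 57.3). In the unnamed cells, C4b was 2.58 CPM contralaterally and 41.0 CPM ipsilaterally, and Serpina3n 2.95 and 28.6 CPM. Most of this came from cluster 1, with 66 contralateral and 93 ipsilateral cells of high depth (medians of 43684 and 49592 UMIs) that held markers of mature and committed oligodendrocytes. It gave 264 of the 279 ipsilateral C4b UMIs and 190 of the 195 Serpina3n UMIs. Serpina3n in astrocytes was the only class value of either gene below 0, at -0.17, and its difference from the other classes was not tested.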

How the results depend on the processing

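No paired analysis was possible because each group is 1 library, and the labels do not say whether the same animals gave both sides. The log2 ratios of C4b and Serpina3n in mature cells, 2.97 and 2.94, stayed positive in all 19 alternatives run for each. They were 3.80 and 4.49 with 1 CPM added, 1.80 and 1.52 with 20 CPM, and 3.23 and 3.13 as a mean over cells. They were 2.38 and 2.46 at Leiden resolution 2, and 2.15 and 2.16 with each library clustered alone. Without cluster 5, an alternative chosen after seeing the data, they were 2.17 and 2.14. Serpina3n was 3.19 at resolution 0.5, 2.55 in cells without microglia UMIs and 2.76 with cluster 1 counted as mature, also chosen after seeing the data. The share differences were 17 (C4b) and 16.3 points (Serpina3n) without thinning, and 8.52 points for C4b without microglia UMIs, where the log2 odds ratio of co-detection was 3.56. Apart from the pseudocount and the thinning, whose construction moves the values, the cause was not tested. Of all alternative values in mature cells, 67 stayed within the interval of the reported value and the 19 given above did not. In the other classes 79 did and 17 did not, all of them positive. With 1 CPM added, C4b was 3.33 in OPCs, 2.25 in committed cells, 0.74 in neuroblasts and 3.06 in endothelial cells, and Serpina3n was 3.84, 1.21 and 3.06 in the last 3 of these. With 20 CPM added, C4b was 0.54 in OPCs, 0.56 in committed and 0.45 in endothelial cells, and Serpina3n was 0.74 in committed cells, 0.09 in neuroblasts and 0.45 in endothelial cells. Of these, only the 20 CPM setting took C4b in OPCs and committed cells and Serpina3n in committed cells below a log2 ratio of 1. Without called doublets both genes were 0.43 in endothelial cells. In committed cells Serpina3n was 2.38 at resolution 0.5, and C4b was 1.89 with classes set for each cell by a rule. Serpina3n in astrocytes ran from -0.36 to 0.17. All intervals cover counting error only, and animals could not be compared.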
